A study of Mus musculus with 6 samples.

Results

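The Eph receptors with their ephrin ligands, the Robo receptors with their Slit ligands, and the Unc5 receptors with the netrins were examined in the mesenchyme of the mouse incisor. The genes were taken by symbol, which picked out 33 of the 23718 genes listed. They comprised 6 EphA receptors, 5 EphB receptors, 5 ephrin-A ligands, 3 ephrin-B ligands, 3 Slits, 4 Robo receptors, 3 netrins and 4 Unc5 receptors. Of these, 29 had a mean normalized value of at least 1 over the 6 samples and were tested among the 15391 genes that reached this minimum. Ephb1, Robo3, Slit1 and Unc5a did not reach it.

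Eph receptors are receptor tyrosine kinases that bind ephrins on the surface of a touching cell, and signals can pass into both cells. Slits are secreted proteins bound by Robo receptors, and netrins are secreted, laminin-related proteins that act through Dcc, neogenin or the Unc5 receptors. These families are best known for steering growing axons, and they also act in blood vessels, at tissue boundaries and, for ephrin-B2 and EphB4, between the cells of bone.

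The tissue came from the incisor, a tooth that grows throughout life, of mice 1 month old. The labels give the strain as C57BL/6, while the methods of the study describe a mixed background. Mesenchymal stem cell (MSC) samples carried the genotype Gli1-CreER;tdT and transit amplifying cell (TAC) samples, from the region of the dividing progeny, carried Axin2-CreER;tdT, with 3 samples in each group. In both lines a tamoxifen-dependent Cre under the named driver switches on the red reporter tdTomato, all mice received tamoxifen 1 day before collection by the methods of the study, and no sample lacked Cre, reporter or tamoxifen. Because each region was cut by laser from sections of its own line, the genotype and the region cannot be told apart, and every cell type in the cut tissue contributes RNA. The methods of the study give 3 mice per group and call the sequenced samples pairs, but do not explain the pairing, and the labels do not tie samples to animals, so p-values measure the spread between these samples, which may be partly technical.

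A deposited value is an estimated read number plus 1, divided by a factor for its library, and is not divided by gene length. Replicates 1 and 2 of both groups held 20203159 to 25567244 estimated reads, MSC replicate 3 held 59793645 and TAC replicate 3 held 108156380. Replicate 3 stood apart in both groups. Mitochondrial ribosomal RNA took 8.28% to 9.07% of reads in replicates 1 and 2, 0.236% in MSC replicate 3 and 0.112% in TAC replicate 3, and of all listed genes 6.89% to 8.36%, 43.1% and 28.3% had no read in them. None of 12 housekeeping genes was without reads in any library. Of the 33 guidance genes, 7 had no read in MSC replicate 3, 4 had none in TAC replicate 3 and 1 had none in TAC replicate 1. Replicates 1 and 2 differed by 10.28 (MSC) and 8.326 (TAC) times counting noise and were kept as separate samples. Repeat libraries of 1 RNA could also differ by more than counting noise, and whether these were such repeats cannot be told from the values, whose correlation on the log2 scale was 0.980 (MSC) and 0.988 (TAC), against 0.659 to 0.776 with replicate 3 of the same group. Values within replicates 1 and 2 and within replicate 3, where a group is a lone library with no spread of its own, are given beside the results. Values of a gene are always listed in the order of replicates 1, 2 and 3.

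Summed marker levels were measured for the other cells the tissue could hold. Dental mesenchyme markers summed to 1433 to 1455 in MSC and 1286 to 1398 in TAC, with Barx1 at the lowest value in some library. The 11 proliferation genes summed to 159.8 to 238 in MSC and 416 to 1111 in TAC. The 14 endothelial markers summed to 389 to 476 in MSC and 165 to 178 in TAC, and 8 of them were lower in TAC at an unadjusted p under 0.05, with none at the lowest value. The 12 smooth muscle and pericyte markers summed to 1046 to 1718 in MSC and 192 to 242 in TAC, and 5 of the 10 tested passed the adjusted threshold, with Cnn1, Des and Higd1b at the lowest value in some library. Schwann cell markers summed to 42.9 to 49.9 in MSC and 23.8 to 30.5 in TAC, without overlap of the sums. Of the 7 tested 5 were lower and 2 higher in TAC, and none passed the adjusted threshold. Sox10 alone was at an unadjusted p under 0.05, and with the replicate block Mbp was too. Of the 10 listed 5 were at the lowest value in some library. Of the 6 neuron markers listed, 5 were at the lowest value in some library, and of the 2 tested Tubb3 was 3.14, 3.86 and 0.00666 for MSC and 17.0, 18.6 and 14.1 for TAC and Stmn2 was 2.50, 1.62 and 6.87 for MSC and 0.0219, 0.192 and 0.0227 for TAC. In MSC replicate 3 odontoblast and osteoblast markers summed to 2471 and dental epithelium markers to 293, against 12685 to 16004 and 2085 to 3357 in the other 5 libraries. All 10 tested dental epithelium markers had a positive TAC minus MSC change, with a median of 1.12 on the log2 scale and none past the adjusted threshold, and Krt5, Krt14, Krt17, Epcam and Cdh1 had every TAC sample above every MSC sample. Of these Krt17, Epcam and Cdh1 had no read in MSC replicate 3. Macrophage and leukocyte markers summed to 75.6 to 209 in MSC and 44.0 to 125 in TAC, highest in replicate 3 of each group, and red blood cell markers to 37.2 to 79.0 in MSC and 56.3 to 76.3 in TAC. The driver genes overlapped between the groups, with Gli1, of the MSC line, at 256, 245 and 422 for MSC and 153, 141 and 396 for TAC and Axin2, of the TAC line, at 58.3, 48.0 and 12.01 for MSC and 56.8, 63.9 and 34.1 for TAC. With the replicate block 3 endothelial markers (Cldn5, Sox17 and Vwf), 1 dental mesenchyme marker (Pax9) and 4 proliferation genes passed the adjusted threshold, against 0, 0 and 1 without it, and of the smooth muscle and pericyte markers Acta2 was lost and Cspg4 gained. The part of these cells in the guidance gene values was not tested, and ratios to the vessel markers are given for Ntn1, Ntn4, Slit3, Unc5b, Robo4, Efnb2 and Ephb4.

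Across all 29 tested guidance genes 1 passed an adjusted p of 0.05 in limma, the netrin Ntn1. The same threshold was passed by 65 of the 15391 genes, or 0.422%. With the replicate number as a block 2 guidance genes passed, Ntn1 and Slit3, where 1.49% of all genes did. At an unadjusted p under 0.05, 5 guidance genes were lower in TAC against 6.43% of all genes, namely Ntn1, Ntn4, Ephb6, Unc5d and Efna3. None was higher in TAC, where 5.42% of all genes were. Thus 17.2% of the tested guidance genes were at that threshold in the direction of MSC and 0% in the direction of TAC. With the block at the same unadjusted threshold 9 were lower in TAC, against 10.9% of all genes, and 4 were higher in TAC, namely Epha4, Robo1, Unc5b and Unc5c, against 9.43% of all genes.

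The samples of the groups did not overlap for 9 guidance genes. All 3 MSC samples lay above all 3 TAC samples for Ntn1, Ntn4, Ntn5, Ephb6, Unc5d, Efna3 and Robo4, or 24.1% of the genes tested, against 12.2% of all genes. All 3 TAC samples lay above all 3 MSC samples for Epha2 and Efna4, or 6.9%, against 12.3% of all genes. When samples with the same replicate number were set against each other, 14 guidance genes were lower in TAC in all 3 comparisons (48.3%, against 26.4% of all genes) and 8 were higher in all 3 (27.6%, against 24.6% of all genes). In 1 of the 14, Epha1, the comparison of the replicate 3 libraries was between values without a read.

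The median log2 fold change over the 29 genes was -0.57, with 20 lower and 9 higher in TAC, against a median of 0.026 over all genes tested, with 7472 lower and 7919 higher. Here and below a log2 fold change is TAC minus MSC of log2(value + 1), which understates the change of genes with low values. Among the 13 ligands 9 were lower in TAC (median -0.47), and among the 16 receptors 11 were lower (median -0.62). The median of the 29 genes was -0.64 in replicates 1 and 2 and -0.069 in replicate 3.

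**Figure D1:**
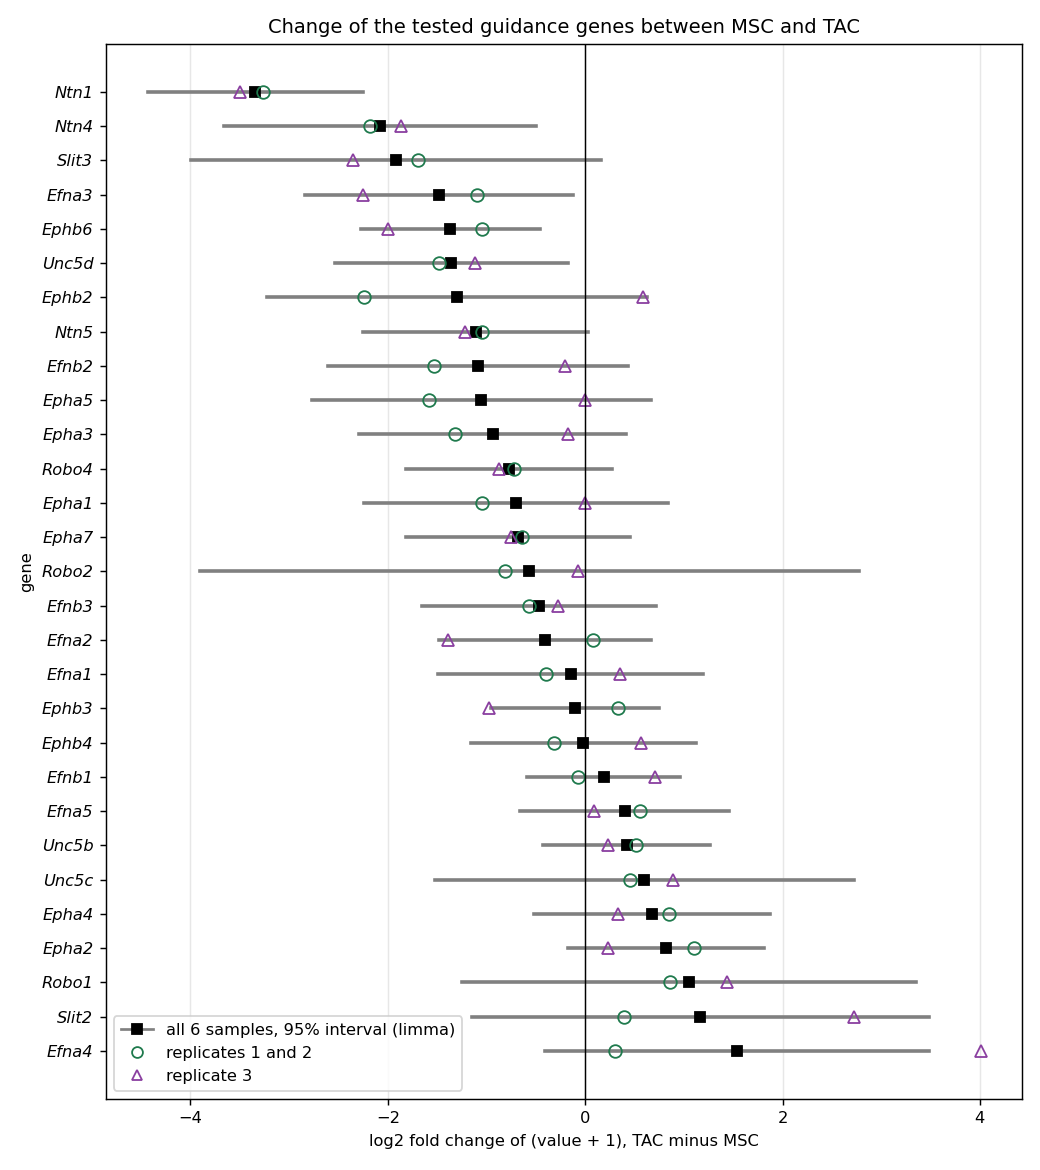
Log2 fold change of (value + 1), TAC minus MSC, on the horizontal axis for each of the 29 tested guidance genes, with the limma estimate over all 6 samples (square) and its 95% interval (line), the change within replicates 1 and 2 (circle) and within replicate 3 (triangle). Ntn1 at -3.34 is farthest below 0 and its circle and triangle nearly coincide, whereas Efna4, Slit2 and Ephb2 show circles and triangles far apart.

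Among the netrin ligands Ntn1 passed the adjusted threshold, and Ntn4 and Ntn5 did not. All 3 had every MSC sample above every TAC sample, as 12.2% of all genes did. Ntn1, the founding vertebrate netrin (chromosome 11, 68209364 to 68400823, minus strand, mm10), was 16.8, 20.5 and 15.5 across the 3 MSC libraries and 1.14, 0.935 and 0.459 across the 3 TAC libraries. The lowest MSC sample was more than 10 times the highest TAC sample, and replicate 3 was the lowest in each group. Group means were 17.6 ± 2.57 for MSC and 0.844 ± 0.349 for TAC (SD, n = 3 each), a ratio of 20.8. Ntn1 fell by 3.34 on the log2 scale (SE 0.47, limma adjusted p 0.0413), by 3.26 within replicates 1 and 2 and by 3.50 within replicate 3. In bulk tissue, fewer cells of a type and less RNA per cell cannot be told apart.

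The Ntn1 call was close to the threshold. Its limma adjusted p was 0.284 without MSC replicate 1, 0.294 without MSC replicate 2, 0.228 without TAC replicate 1, 0.25 without TAC replicate 2 and 0.0789 without TAC replicate 3, and 0.0353 without MSC replicate 3. Over these and the other alternatives the log2 fold change ran from -4.93 to -3.18 and the adjusted p from 6.48e-06, in replicates 1 and 2 only, to 0.903. The latter came with replicates 1 and 2 of each group averaged into 1 sample. There the contrast was -3.38 with a limma unadjusted p of 0.0100, and Ntn1 was not called. As a percentage of the summed smooth muscle and pericyte markers, Ntn1 was 1.60%, 1.93% and 0.903% in MSC and 0.470%, 0.388% and 0.239% in TAC, so all 3 MSC samples lay above all 3 TAC samples on that scale too. As a percentage of the summed endothelial markers it was 4.32%, 5.18% and 3.26% in MSC and 0.638%, 0.525% and 0.278% in TAC, again without overlap. Some single markers in these sums fell further than Ntn1 on the log2 scale, namely Acta2 (-5.36), Myh11 (-5.56), Tagln (-3.60) and Vwf (-3.80). The other tested markers of the sums fell by less or rose. Relative to each of Acta2, Myh11, Tagln and Vwf alone the Ntn1 groups overlapped.

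Ntn4, a netrin of basement membranes (chromosome 10, 93640681 to 93747207, plus strand), was 8.21, 9.50 and 22.8 across the 3 MSC libraries and 1.62, 0.791 and 5.53 across the 3 TAC libraries. Its groups did not overlap, although replicate 3 was the highest in each. The contrast gave -2.08 (SE 0.67, limma adjusted p 0.285), -2.18 between the libraries numbered 1 and 2 and -1.87 between those numbered 3. Relative to the smooth muscle and pericyte markers Ntn4 was 0.784%, 0.899% and 1.33% in MSC and 0.669%, 0.328% and 2.88% in TAC, and on that scale the groups overlapped. As a percentage of the summed endothelial markers it was 2.11%, 2.41% and 4.79% in MSC and 0.908%, 0.445% and 3.35% in TAC. Ntn5 (chromosome 7, 45684022 to 45694556, plus strand), a small netrin-related gene, was 8.10, 6.24 and 12.2 across the 3 MSC libraries and 2.71, 3.15 and 4.64 across the 3 TAC libraries, again without overlap, and the contrast gave -1.11 (SE 0.49, limma adjusted p 0.435). Of its exon bases 23.4% are shared with Sec1 on the opposite strand, and the use of strand in counting is not given in the sources used here.

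The 250 bases before the start sites of Ntn4 and Ntn5 are shown because these are the members of the family with a RefSeq promoter entry. Beyond the counts given below the sequences were not compared. Capitals mark the GC box GGGCGG or its reverse complement CCGCCC, coordinates are on GRCm38.p6, and both sequences run 5′ to 3′ on the strand of the gene.
Ntn4 (chr10:93640799-93641048, plus strand): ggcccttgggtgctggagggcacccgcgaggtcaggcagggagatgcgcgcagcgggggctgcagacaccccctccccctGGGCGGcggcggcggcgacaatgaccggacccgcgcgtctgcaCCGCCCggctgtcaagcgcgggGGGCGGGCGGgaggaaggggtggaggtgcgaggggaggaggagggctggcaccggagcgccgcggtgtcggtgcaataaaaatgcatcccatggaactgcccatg
Ntn5 (chr7:45683772-45684021, plus strand): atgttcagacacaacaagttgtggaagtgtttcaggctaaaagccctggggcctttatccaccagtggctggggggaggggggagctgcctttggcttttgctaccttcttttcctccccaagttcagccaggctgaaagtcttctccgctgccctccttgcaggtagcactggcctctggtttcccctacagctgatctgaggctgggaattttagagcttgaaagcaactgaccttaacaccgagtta
The Ntn4 window held 26 CpG dinucleotides and 4 GC boxes, of which 2 overlap, and ends before a start site that lies 368 bases into the deposited gene. The Ntn5 window held 2 CpG dinucleotides and none of the motifs searched.

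Among the receptors for netrins, Unc5d had higher values in MSC, as the netrins did, and Unc5b and Unc5c did not. Unc5d (chromosome 8, 28646717 to 29219636, minus strand), a receptor of the dependence type, was 57.8, 56.3 and 20.9 across the 3 MSC libraries and 19.9, 19.8 and 9.12 across the 3 TAC libraries. Every MSC sample was above every TAC sample, by a narrow margin between MSC replicate 3 and TAC replicate 1. Its log2 fold change came to -1.36 (SE 0.50, limma adjusted p 0.350), -1.48 between the libraries numbered 1 and 2 and -1.11 between those numbered 3.

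Unc5b, known from endothelial cells and vessel branching, had the highest level per kilobase of the Unc5 family (chromosome 10, 60762593 to 60831581, minus strand). It was 121, 122 and 79.0 across the 3 MSC libraries and 179, 169 and 92.8 across the 3 TAC libraries, higher in TAC in each same-numbered comparison but with overlapping groups. The contrast gave 0.42 (SE 0.36, limma adjusted p 0.706). While the summed endothelial markers were lower in TAC, Unc5b relative to them was 31.1%, 30.8% and 16.6% in MSC and 100.1%, 95.2% and 56.2% in TAC. Unc5c, a receptor for netrin repulsion, was 84.2, 91.6 and 12.5 for MSC and 122, 119 and 24.0 for TAC, with a contrast of 0.60 (SE 0.91, limma adjusted p 0.866) that became -0.31 without MSC replicate 3. In both Unc5c and Unc5b replicate 3 lay below replicates 1 and 2 within each group. Unc5a had few estimated reads, 7, 30 and 0 in MSC and 7, 5 and 0 in TAC.

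Slit3 was the main Slit of the tissue. Per kilobase of exon, the scale on which levels of different genes can be compared, it made up 88.4% to 99.99% of the family level in each library. Slit3 (chromosome 11, 35121224 to 35708507, plus strand) was 248, 242 and 56.5 across the 3 MSC libraries and 73.4, 76.1 and 10.2 across the 3 TAC libraries. Each TAC sample was below the MSC sample of the same number, but MSC replicate 3 was lower than TAC replicates 1 and 2, so the groups overlapped. Group means were 182 ± 109 for MSC and 53.3 ± 37.3 for TAC (SD, n = 3 each). The contrast gave -1.92 (SE 0.88, limma adjusted p 0.457).

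With the replicate block the SE of Slit3 was 0.19 and its limma adjusted p 0.0442. With replicates 1 and 2 of each group averaged into 1 sample the contrast was -2.03 with an unadjusted p of 0.0321 and a limma adjusted p of 1.00, and it was not called. Its contrast was -1.70 between the libraries numbered 1 and 2 and -2.36 between those numbered 3. Without TAC replicate 3 it was -1.0 and without MSC replicate 3 it was -2.62, both in the fit without the block. Relative to the summed smooth muscle and pericyte markers Slit3 was 23.7%, 22.9% and 3.29% in MSC and 30.3%, 31.6% and 5.34% in TAC, higher in TAC than in MSC for each replicate number.

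Slit2, the classical midline repellent (chromosome 5, 47983138 to 48307733, plus strand), was 9.91, 9.79 and 0.00666 across the 3 MSC libraries and 16.4, 10.6 and 5.63 across the 3 TAC libraries. MSC replicate 3 had no Slit2 read, and TAC replicate 3 had 1485 estimated reads. A log2 fold change of 1.17 (SE 0.99, limma adjusted p 0.706) resulted, 0.39 between the libraries numbered 1 and 2 and 2.72 between those numbered 3. It was 0.024 without MSC replicate 3 and 6.78 with voom on the estimated reads. Slit1 had few estimated reads, 35, 45 and 0 in MSC and 14, 22 and 0 in TAC.

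The contrasts of the Robo receptors differed in sign, and none passed the adjusted threshold. Robo1 (chromosome 16, 72663149 to 73046095, plus strand), a broadly expressed Slit receptor, was 137, 119 and 15.1 across the 3 MSC libraries and 242, 223 and 42.4 across the 3 TAC libraries. It was higher in TAC in each same-numbered comparison, while replicate 3 was far below replicates 1 and 2 in both groups. The contrast gave 1.05 (SE 0.98, limma adjusted p 0.732), and 0.0689 was the adjusted p with the block. Without MSC replicate 3 the contrast was 0.052 and without TAC replicate 3 it was 1.86. Robo2 (chromosome 16, 73892306 to 74411825, minus strand) was 31.4, 25.5 and 0.506 across the 3 MSC libraries and 15.2, 16.1 and 0.436 across the 3 TAC libraries, with replicate 3 far below the others in both groups. Per kilobase of exon it lay below Robo1 in every library. For Robo2 the contrast gave -0.57 (SE 1.42, limma adjusted p 0.931), -0.82 between the libraries numbered 1 and 2 and -0.069 between those numbered 3, and it turned to 0.22 without MSC replicate 1, 0.075 without MSC replicate 2 and 0.61 without TAC replicate 3.

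Robo4, the endothelial member of the family (chromosome 9, 37401897 to 37415115, plus strand), was 10.2, 10.1 and 18.6 across the 3 MSC libraries and 5.98, 5.59 and 9.65 across the 3 TAC libraries. All MSC samples were above all TAC samples, the nearest being MSC replicate 2 and TAC replicate 3. The contrast gave -0.77 (SE 0.44, limma adjusted p 0.563) and was alike in both library sets, at -0.72 and -0.88. The endothelial markers moved in the same direction, and as a percentage of their sum Robo4 was 2.63%, 2.55% and 3.90% in MSC and 3.35%, 3.14% and 5.85% in TAC, higher in TAC for each replicate number. Robo3 had at most 13 estimated reads in any library.

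Robo1 and Robo2 were set against each other within each library. Their log2 ratio within a library, which does not depend on library scaling apart from the added 1, was 2.09, 2.18 and 3.41 in MSC and 3.90, 3.72 and 4.92 in TAC. The groups did not overlap, with a difference of 1.62 (exact permutation p 0.1, two-sided, 0.267 adjusted over 8 ratios). Robo2 was 0.506 in MSC replicate 3 and 0.436 in TAC replicate 3, below the added 1, and the lack of overlap depended on that 1. Without the added 1 the ratio of MSC replicate 3 lay above those of TAC replicates 1 and 2. With 3 samples against 3 the smallest p that this test can give is 0.1. The ratio differed by 1.68 between the libraries numbered 1 and 2 and by 1.50 between those numbered 3. The promoter windows of these neighbouring genes of chromosome 16 are shown for that contrast, in the same format as above.
Robo1 (chr16:72662899-72663148, plus strand): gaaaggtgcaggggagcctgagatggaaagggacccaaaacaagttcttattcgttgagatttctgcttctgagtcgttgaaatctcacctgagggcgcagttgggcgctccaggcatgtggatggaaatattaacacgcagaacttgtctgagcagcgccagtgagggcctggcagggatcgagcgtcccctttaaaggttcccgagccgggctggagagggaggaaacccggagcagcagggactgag
Robo2 (chr16:74411826-74412075, minus strand): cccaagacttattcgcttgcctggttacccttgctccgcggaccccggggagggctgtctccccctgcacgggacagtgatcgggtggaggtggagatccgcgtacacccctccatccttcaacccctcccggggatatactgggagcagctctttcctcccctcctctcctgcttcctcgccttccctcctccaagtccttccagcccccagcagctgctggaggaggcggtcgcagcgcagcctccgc
Neither window held a GC box or another motif searched. The Robo1 window had 11 CpG dinucleotides and 56.0% GC and the Robo2 window, at the start site that ends the deposited gene, had 14 and 65.6%. RefSeq gave further Robo2 promoters, not shown, with start sites at -680945 and -1035468 bases from the deposited start. Their windows had 4 and 8 CpG dinucleotides and 44.8% and 53.2% GC.

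**Figure D2:**
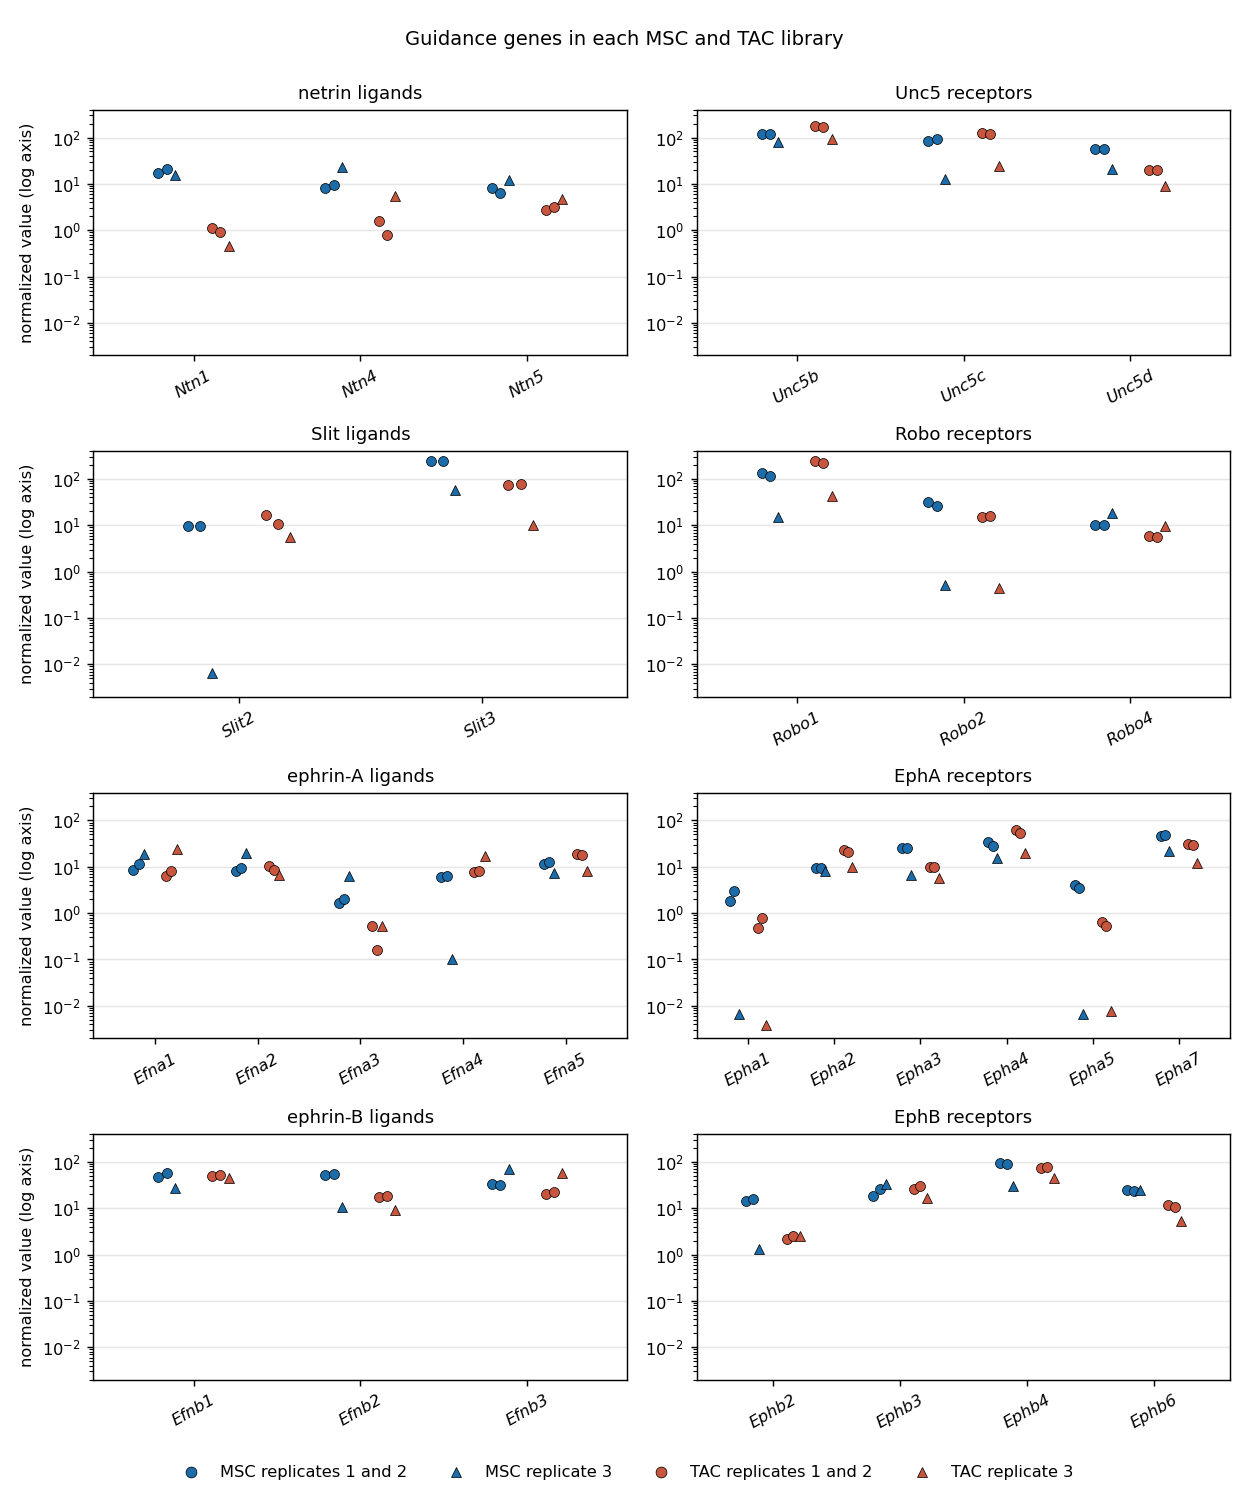
Normalized value (log axis) of each tested guidance gene in every library, by family, with MSC in blue and TAC in red, circles for replicates 1 and 2 and triangles for replicate 3. MSC and TAC separate in the netrin panel, and triangles sit below the circles for Slit3, Robo1, Robo2 and Unc5c. Points near 0.004 to 0.008 stand for 0 or 1 estimated read.

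Among the ephrin-A ligands, which are tethered to the membrane by a lipid anchor, no gene passed the adjusted threshold. Efna1 had the highest mean level per kilobase of exon over the 6 libraries, though Efna2, Efna4 and Efna5 were above it in TAC replicate 1 and Efna4 in TAC replicate 2, and was 8.66, 11.4 and 19.1 across the 3 MSC libraries and 6.44, 8.30 and 24.6 across the 3 TAC libraries, with a contrast of -0.15 (SE 0.57, limma adjusted p 0.961). Efna3, with the lowest mean of the family per kilobase but above Efna4 and Efna5 in MSC replicate 3, was 1.67, 2.04 and 6.22 across the 3 MSC libraries and 0.525, 0.158 and 0.519 across the 3 TAC libraries. Its MSC samples were all above its TAC samples and the contrast gave -1.48 (SE 0.58, limma adjusted p 0.376), but the TAC values rest on 5.6 estimated reads in the lowest library, and 14.1% of its exon bases are shared with the antisense gene Gm15998.

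Efna4 was 6.00, 6.28 and 0.0998 across the 3 MSC libraries and 7.72, 7.93 and 16.7 across the 3 TAC libraries. The TAC samples were all higher, with a log2 fold change of 1.54 (SE 0.83, limma adjusted p 0.532). That value rested on MSC replicate 3, which had 14 estimated reads, and within replicates 1 and 2 it was 0.30. Of its exon bases 10.5% are shared with the antisense gene 4731419I09Rik. Efna2 was 8.21, 9.39 and 19.4 across the 3 MSC libraries and 10.4, 8.39 and 6.80 across the 3 TAC libraries, with contrasts of opposite sign, 0.083 between the libraries numbered 1 and 2 and -1.39 between those numbered 3. Efna5 was between 7.50 and 18.6 in all libraries and had a log2 fold change of 0.40 (SE 0.45, limma adjusted p 0.795).

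The EphA receptors bind chiefly ephrin-A ligands. Epha4, which also binds ephrin-B ligands, had the highest mean value of the 6 per kilobase of exon, at 4.44, and Epha7 the next, at 3.22. Epha4 (chromosome 1, 77367185 to 77515088, minus strand) was 34.8, 28.5 and 15.7 across the 3 MSC libraries and 62.6, 53.3 and 19.9 across the 3 TAC libraries, higher in TAC for each replicate number. The contrast gave 0.68 (SE 0.51, limma adjusted p 0.670). Epha7 (chromosome 4, 28813131 to 28967499, plus strand) was 46.4, 49.6 and 21.5 across the 3 MSC libraries and 31.7, 29.2 and 12.3 across the 3 TAC libraries, lower in TAC for each replicate number, and its contrast was -0.68 (SE 0.48, limma adjusted p 0.653). For both genes replicate 3 lay below replicates 1 and 2 in each group, and the SE, 0.51 and 0.48 without the replicate block, was 0.21 and 0.18 with it.

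The log2 ratio of Epha4 to Epha7 within a library varied less among samples of a group. It was -0.40, -0.78 and -0.43 in MSC and 0.96, 0.84 and 0.65 in TAC. It was below 0 in every MSC library and above 0 in every TAC library, on a scale not divided by length. The difference was 1.36 (exact permutation p 0.1, the smallest it can give, 0.267 adjusted over 8 ratios), 1.49 in replicates 1 and 2 and 1.08 in replicate 3. On the scale per kilobase Epha4 made up 24.3% to 29.5% of the EphA level in MSC and 38.2% to 45.6% in TAC, and Epha7 32.1% to 34.4% in MSC and 18.8% to 19.4% in TAC, so the order of the genes differed between the regions on that scale too. Their promoter windows are shown for this pair, with GC boxes in capitals.
Epha4 (chr1:77515089-77515338, minus strand): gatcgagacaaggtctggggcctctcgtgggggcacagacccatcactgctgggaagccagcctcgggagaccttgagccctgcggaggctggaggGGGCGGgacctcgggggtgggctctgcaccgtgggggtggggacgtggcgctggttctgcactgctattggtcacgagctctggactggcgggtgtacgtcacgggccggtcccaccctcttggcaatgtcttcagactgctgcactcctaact
Epha7 (chr4:28812881-28813130, plus strand): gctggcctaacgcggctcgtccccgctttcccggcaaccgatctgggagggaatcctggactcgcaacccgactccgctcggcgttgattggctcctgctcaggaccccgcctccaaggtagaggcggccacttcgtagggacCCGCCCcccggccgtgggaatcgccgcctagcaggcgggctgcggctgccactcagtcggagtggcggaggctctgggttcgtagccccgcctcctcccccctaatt
Each window held 1 GC box and none of the other motifs, with 14 CpG dinucleotides for Epha4 and 25 for Epha7. In the Epha4 window 59 bases overlap an exon of Gm28386.

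Epha2, a receptor of epithelia and vessels (chromosome 4, 141301240 to 141329384, plus strand), was 9.19, 9.59 and 8.11 across the 3 MSC libraries and 22.5, 20.4 and 9.71 across the 3 TAC libraries. All TAC samples were above all MSC samples, though TAC replicate 3 exceeded the highest MSC sample by little. Of the 10 dental epithelium markers 5 had the same lack of overlap in that direction, and their part in the Epha2 values was not tested. Of these 5, Krt17, Epcam and Cdh1 had no read in MSC replicate 3. The most abundant markers, Amelx and Ambn, overlapped between the groups. The marker sum, carried mainly by Amelx and Ambn, was 3357, 3297 and 293 for MSC and 2984, 3069 and 2085 for TAC. Epha2 had a log2 fold change of 0.82 (SE 0.42, limma adjusted p 0.512), 1.11 between the libraries numbered 1 and 2 and 0.23 between those numbered 3. Epha3 was 25.6, 25.9 and 6.66 for MSC and 9.68, 9.73 and 5.80 for TAC, lower in TAC for each replicate number. Epha5 was 4.02, 3.45 and 0.00666 for MSC and 0.635, 0.527 and 0.00758 for TAC, with a log2 fold change of -1.58 in replicates 1 and 2 and 0 or 1 estimated read in replicate 3. Epha1 was 1.81, 3.01 and 0.00666 for MSC and 0.482, 0.778 and 0.00379 for TAC, with no read in replicate 3 of either group. Their log2 fold changes over all samples were -0.94, -1.05 and -0.70, with limma adjusted p-values of 0.590, 0.639 and 0.733.

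Ephrin-B ligands span the membrane and can signal through their own cytoplasmic tail. Efnb1 had the highest level per kilobase of exon in replicates 1 and 2 of both groups and Efnb3 in replicate 3 of both. Efnb1 was 48.4, 57.5 and 27.7 across the 3 MSC libraries and 49.0, 51.6 and 45.8 across the 3 TAC libraries, for which the contrast gave 0.19 (SE 0.33, limma adjusted p 0.890). Efnb2, the arterial ephrin (chromosome 8, 8617434 to 8661242, minus strand), was 51.4, 54.9 and 10.7 across the 3 MSC libraries and 17.5, 18.1 and 9.20 across the 3 TAC libraries. In replicates 1 and 2 the MSC values were well above the TAC values, with a log2 fold change of -1.53, whereas MSC replicate 3 and TAC replicate 3 were close, at -0.20. The contrast over all samples gave -1.09 (SE 0.65, limma adjusted p 0.574), and -1.82 without MSC replicate 3. As a percentage of the summed endothelial markers Efnb2 was 13.2%, 13.9% and 2.25% in MSC and 9.78%, 10.1% and 5.57% in TAC, lower in TAC for replicates 1 and 2 and higher for replicate 3, with overlapping groups. Efnb3 was 32.7, 32.1 and 71.1 for MSC and 20.4, 22.8 and 58.6 for TAC, higher in replicate 3 than in replicates 1 and 2 and lower in TAC for each replicate number, with a log2 fold change of -0.47 (SE 0.50, limma adjusted p 0.782) that was -0.099 without MSC replicate 3 and -0.94 without TAC replicate 3.

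Among the EphB receptors Ephb6 was the gene most separated between the regions. Ephb6, a member that lacks kinase activity (chromosome 6, 41605482 to 41620509, plus strand), was 25.1, 23.3 and 24.2 across the 3 MSC libraries and 11.6, 10.8 and 5.29 across the 3 TAC libraries. The MSC samples lay close together and each was above every TAC sample, with group means of 24.2 ± 0.888 for MSC and 9.22 ± 3.42 for TAC (SD, n = 3 each). The contrast gave -1.37 (SE 0.39, limma adjusted p 0.217) at an unadjusted p of 0.00894, -1.05 between the libraries numbered 1 and 2 and -2.0 between those numbered 3.

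Ephb4, the venous receptor for ephrin-B2 (chromosome 5, 137350109 to 137378669, plus strand), had the highest level per kilobase of the EphB family. It was 96.0, 91.3 and 30.6 across the 3 MSC libraries and 73.8, 76.2 and 45.8 across the 3 TAC libraries, so replicates 1 and 2 were lower and replicate 3 higher in TAC. The contrast was -0.022 (SE 0.49, limma adjusted p 0.993), with a 95% interval from -1.16 to 1.12, and its sign turned under 6 of 18 alternatives. As a percentage of the summed endothelial markers, which were lower in TAC, Ephb4 was 24.7%, 23.1% and 6.42% in MSC and 41.4%, 42.8% and 27.7% in TAC, with all TAC samples above all MSC samples. Ephb2 (chromosome 4, 136647539 to 136835988, minus strand) was 14.0, 15.6 and 1.30 across the 3 MSC libraries and 2.12, 2.57 and 2.46 across the 3 TAC libraries, with a change of -2.24 in replicates 1 and 2, 0.59 in replicate 3 and -1.30 over all samples (limma adjusted p 0.604). Without MSC replicate 3 it was -2.22, with a limma adjusted p of 0.0409. Ephb3 was 18.3, 25.6 and 34.0 for MSC and 25.8, 29.5 and 16.9 for TAC, with a contrast of -0.10 (SE 0.36, limma adjusted p 0.956). Ephb1, which was not tested, was 1.76, 0.637 and 0.00666 for MSC and 1.81, 1.20 and 0.205 for TAC.

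The make-up of each family was compared per kilobase of exon. Over all 6 samples the highest means were those of Unc5b at 20.3, Slit3 at 19.4, Ephb4 at 14.9, Efnb1 at 13.5 and Efnb3 at 12.4. In MSC the mean of Slit3 was 30.01 and that of Unc5b 17.1, and in TAC they were 8.78 and 23.5. The same gene led in every library for the Slits and for the Unc5 receptors, where Unc5b made up 63.7% to 86.8% of the level. Unc5d made up 14.6% to 20.9% of the Unc5 level in MSC and 5.79% to 6.04% in TAC. Ntn1 made up 17.6% to 37.8% of the netrin level in MSC and 2.01% to 9.88% in TAC, and the summed netrin level was 8.52, 8.62 and 14.1 per kilobase in MSC and 1.84, 1.78 and 3.64 in TAC. In the Robo family Robo1 led in 5 libraries with 58.2% to 87.9%, and in MSC replicate 3 Robo4 led with 78.8%.

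**Figure D3:**
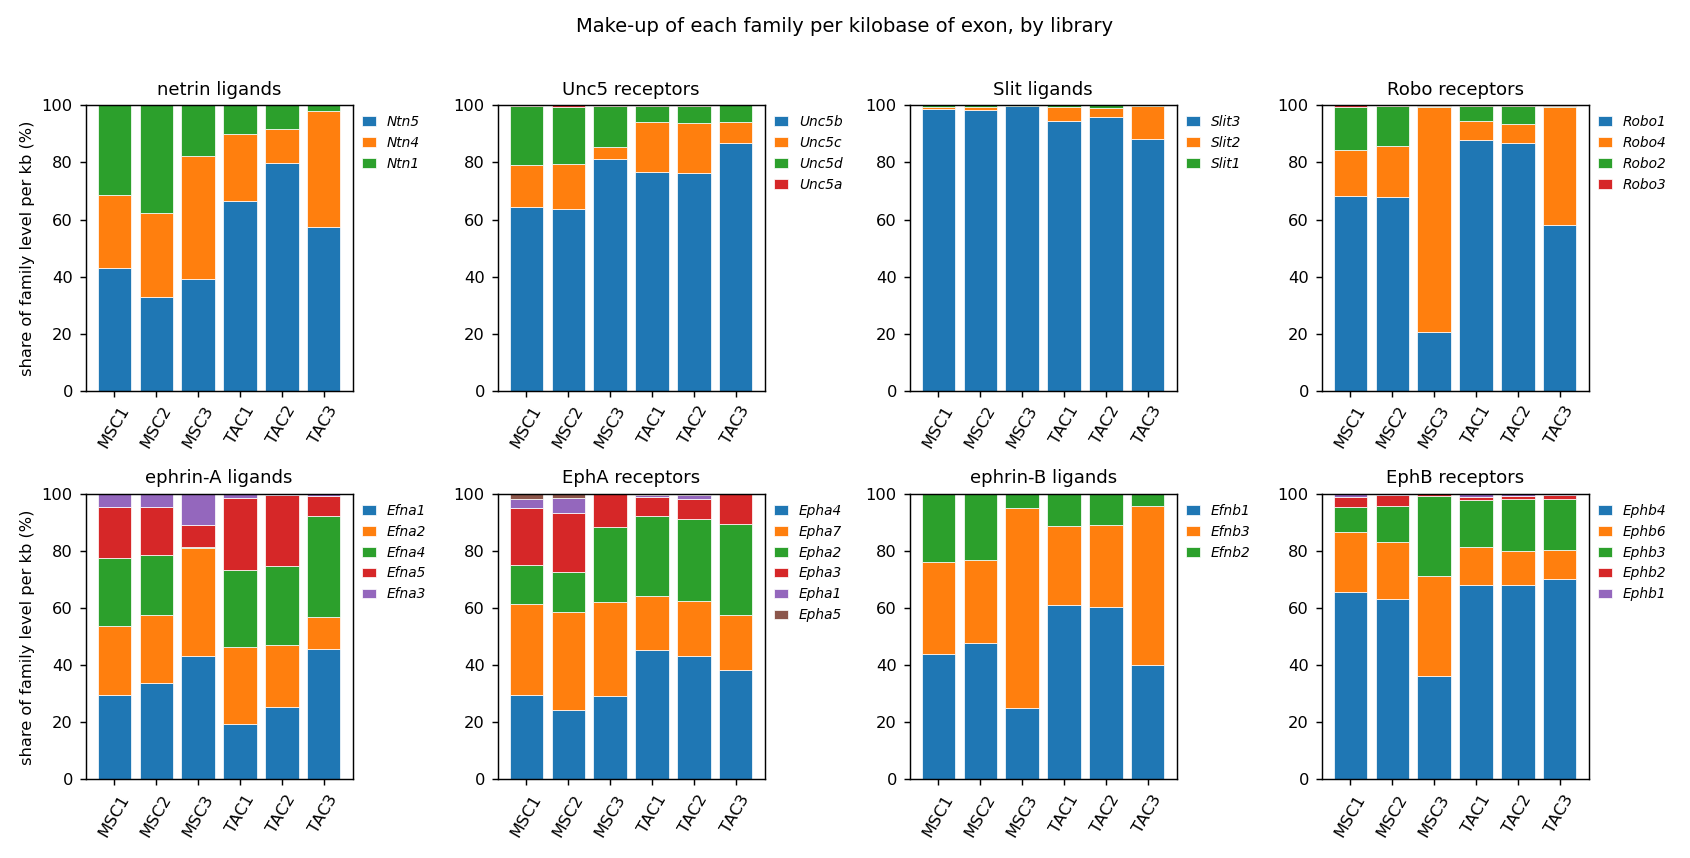
Share (%) of each member in the summed level per kilobase of exon of its family, for each of the 8 families and 6 libraries. Slit3 and Unc5b fill most of their bars in every library, Epha4 takes a larger and Epha7 a smaller share in TAC than in MSC, and MSC replicate 3 departs from the other MSC libraries in the Robo, EphB and ephrin-B panels.

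For each family the ratio of the 2 members with the highest mean values was tested. For Slit3 over Slit2 it was 4.51, 4.49 and 5.84 in MSC and 2.10, 2.73 and 0.76 in TAC on the log2 scale, without overlap. The difference was -3.09 (exact permutation p 0.1, 0.267 adjusted over 8 ratios), and -2.09 within replicates 1 and 2. The MSC replicate 3 ratio was set against no Slit2 read. With values divided by transcript length it was -1.92. For Ntn1 over Ntn4 the difference was -1.26 (exact permutation p 0.300), with overlapping groups, -0.33 with values divided by transcript length and -0.57 without TAC replicate 3. The ratios in the EphB, ephrin-A, ephrin-B and Unc5 families differed by 0.079, -0.55, 0.66 and -0.18, with exact permutation p-values of 1, 0.6, 0.5 and 0.9.

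**Figure D4:**
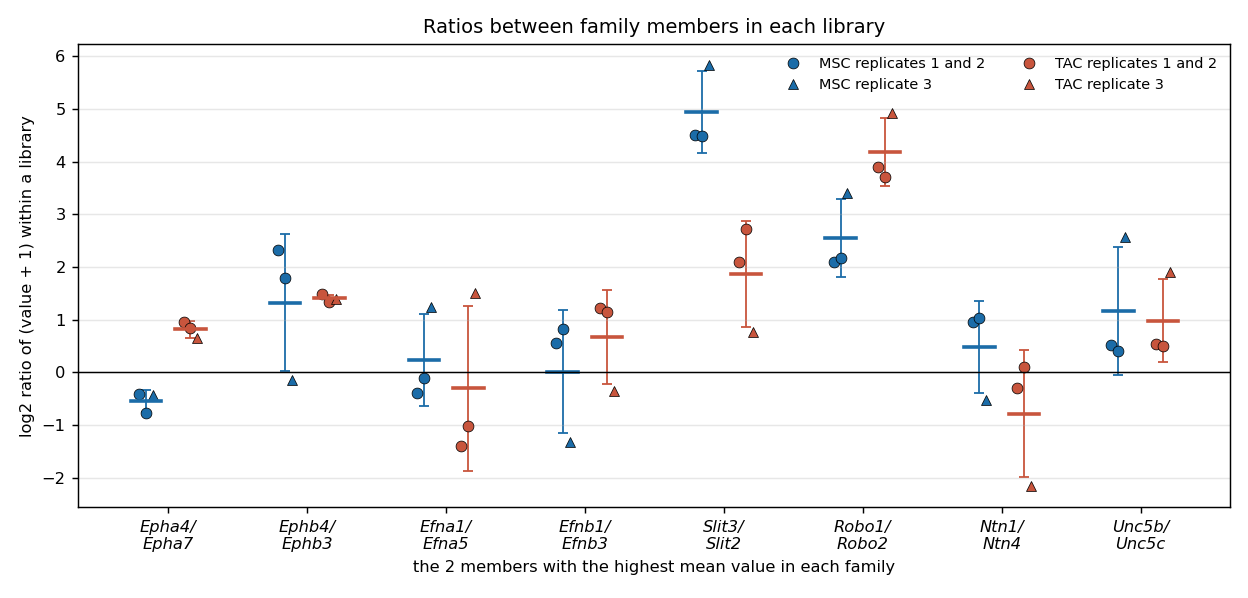
Log2 ratio of (value + 1) between the 2 members with the highest mean value in each family, by library, with MSC in blue, TAC in red, circles for replicates 1 and 2, triangles for replicate 3, and a bar and line for the mean ± SD (n = 3). Epha4/Epha7, Slit3/Slit2 and Robo1/Robo2 are the 3 pairs whose groups do not overlap. For Robo1/Robo2 this depends on the added 1.

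The TAC minus MSC change differed between replicate 3 and replicates 1 and 2, with an adjusted p under 0.05 and opposite directions, for 6 guidance genes (20.7%), against 27.8% of all genes. These were Efna2, Efnb1, Epha5, Ephb2, Ephb3 and Ephb4. Since replicate 3 is 1 library in each group, the only error in that limma fit is the spread between replicates 1 and 2, and the count is a description. In Epha5 the sign in replicate 3 came from 0 against 1 estimated read, and Efna2, Efnb1 and Ephb3 did not pass in replicates 1 and 2 only.

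The contrast over all samples depended on single libraries for most guidance genes. In 22 of the 29 it moved by more than 1.5 times, or turned sign, when some library was left out, in 21 of them without MSC replicate 3 and in 13 without TAC replicate 3. The other 7 were Efna3, Epha2, Ephb6, Ntn1, Ntn4, Ntn5 and Unc5d. The same count over all genes was not made. The measure is a ratio to the change over all samples, so a gene with a change near 0, such as Ephb4 at -0.022, meets it readily.

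The level in replicate 3 also varied with the length of the gene. Replicate 3 minus the mean of replicates 1 and 2, averaged over MSC and TAC on the log2 scale, had a median of -1.30 in the 14 guidance genes that span at least 100 kb, and 13 of these were lower in replicate 3, all but Ntn4. In the 15 shorter genes the median was -0.48 and 9 were lower. Over all protein-coding genes tested the medians were -1.12 for 1909 genes of at least 100 kb and -0.10 for 11105 shorter genes. Across the 29 guidance genes the correlation of this difference with the log of the span was -0.71 (Pearson) and -0.78 (Spearman), and over 13014 protein-coding genes -0.32 and -0.36. Genes are not independent replicates and all points share the same 6 libraries, so these are descriptions. Robo2, Robo1, Unc5c, Slit3 and Slit2, which span 325 to 587 kb, had the 5 lowest differences among the guidance genes, from -3.91 to -2.27. The TAC minus MSC change itself had a correlation of -0.12 (Pearson) with span across the guidance genes.

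**Figure D5:**
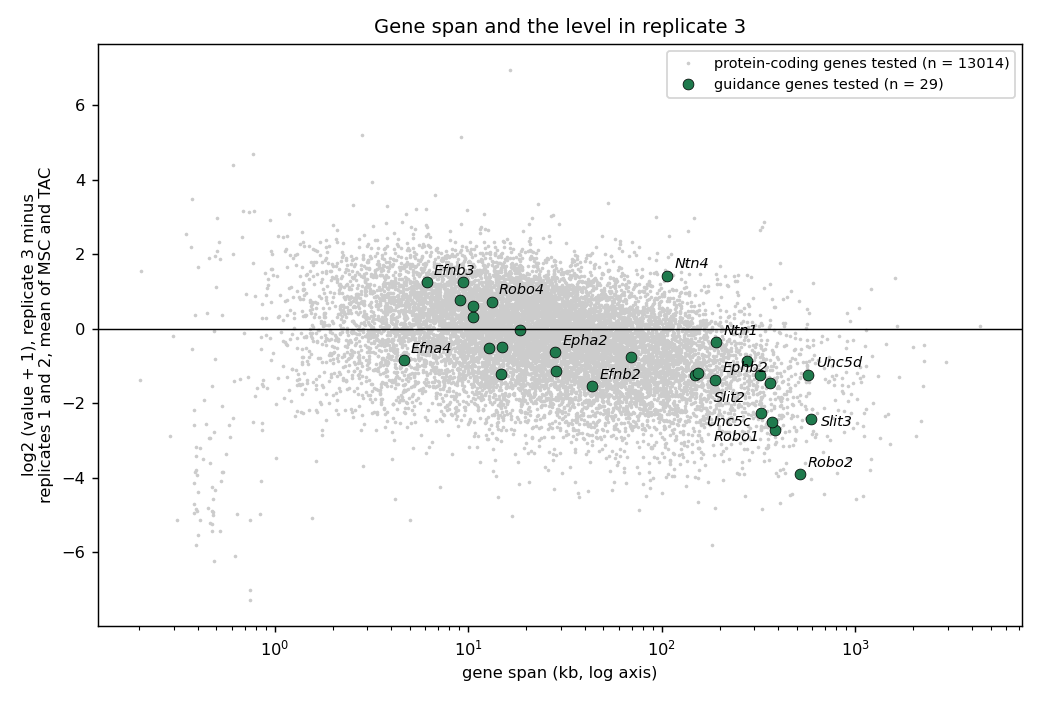
Replicate 3 minus replicates 1 and 2, as log2(value + 1) averaged over MSC and TAC, against gene span in kb (log axis), for the 29 tested guidance genes (green) and 13014 protein-coding genes (grey). Long genes such as Robo2, at -3.91, lie lowest, while Efnb3 and Ntn4 lie above 0.

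Other receptors and signal transducers of the pathways were read from the same fit. Of 12 tested alternative receptors and co-ligands 8 were lower and 4 higher in TAC, and none passed the adjusted threshold. Neo1, which encodes the netrin and RGM receptor neogenin, was the 1 of the 12 at an unadjusted p under 0.05, where 11.9% of all genes were. It was 90.4, 85.4 and 75.4 for MSC and 57.0, 54.0 and 33.8 for TAC, without overlap, with a log2 fold change of -0.81 (SE 0.29, limma adjusted p 0.340). All MSC samples lay above all TAC samples for 3 of the 12, Neo1, Flrt2 and Dag1, as for 12.2% of all genes. With the replicate block 4 of the 12 were at that unadjusted threshold (Dag1, Flrt1, Neo1 and Rgma), where 20.4% of all genes were. Dcc, the main netrin receptor of axons, had a value of at most 2.43 in any library.

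Of 28 tested transducers of Eph and ephrin signals 17 were lower and 11 higher, with none past the adjusted threshold. Chn1, whose product α2-chimaerin relays Epha4 signals, was 14.4, 14.5 and 7.55 for MSC and 36.5, 39.9 and 55.0 for TAC (contrast 1.8 on the log2 scale, SE 0.36, limma adjusted p 0.114). Rgs3, which binds ephrin-B tails, was 68.6, 67.2 and 87.4 for MSC and 36.0, 35.5 and 35.0 for TAC (contrast -1.04, SE 0.25, limma adjusted p 0.166). In both genes the groups did not overlap, and they were the 2 of the 28 at an unadjusted p under 0.05, where 11.9% of all genes were. With the block 6 were, against 20.4% of all genes, the other 4 being Grb10, Kalrn, Tiam1 and Vav3. Of 23 transducers of Slit and netrin signals 11 were lower and 12 higher, again with none past the adjusted threshold. At an unadjusted p under 0.05 were 3 of the 23, and 5 with the block, which adds Cdc42 and Enah. The 3 were the Slit-Robo GTPase activator Srgap3 (-1.22, limma adjusted p 0.381), the actin-binding Ablim1 (-1.43, limma adjusted p 0.298) and the GTPase Rac1 (0.72, limma adjusted p 0.303). The median log2 fold changes of these lists were -0.78, -0.19 and 0.063, beside 0.026 over all genes.

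RefSeq gave 34 promoters for 29 of the 33 guidance genes. The 250 bases before the start site were searched on both strands. The GC box GGGCGG was in 22 of the 34 (64.7%), against 32.7% of all 32851 promoters and 42.6% of the 21263 of protein-coding genes. The median number of CpG dinucleotides was 17, against 6 in all promoters and 10 in those of protein-coding genes. The TCF/LEF core CTTTGA was in 2 windows, those of Epha2 and Robo4 (5.88%, against 13.8% of all promoters), and the TATA box TATAAA in 2, those of Efnb2 and Slit2 (5.88%, against 12.4%). The GLI site GACCACCCA was in none, against 0.225% of all promoters. A match of letters is not a binding site, and its absence says only that these letters are not in this window.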

How the data were processed

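RNA sequencing values of 3 MSC and 3 TAC samples were taken as deposited. Per the submitters' processing notes CASAVA 1.8.2, TopHat2 2.0.8 and Partek were used, on mm10. The counting tool, the annotation and the use of strand are not given in the sources used here. The methods of the study name RPKM, but genes of every length had the same smallest value within a library, and 63.3% to 73.9% of low values (up to 20 reads) were whole multiples of its step within 0.02 reads. They were handled as a signal, deposited as (estimated reads + 1) over a scaling factor of the library. Depth ran from 20203159 to 108156380 estimated reads.

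Values were taken as log2(value + 1). The 15391 genes whose mean reached 1 were fitted with limma 3.58.1 (R 4.3.3, variance trend on), TAC minus MSC, two-sided, with Benjamini-Hochberg adjustment over all genes at 0.05. The difference between library sets was fitted as an interaction, whose error comes from replicates 1 and 2 alone. Ratios within families were compared by exact permutation tests, which cannot go below 0.1 here.

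Correlations of deviations from group means were 0.477, 0.465 and 0.517 for same-numbered samples, and 0.462 and 0.480 for replicates 1 and 2 crossed, so the shared deviation separated replicate 3 from replicates 1 and 2. Values with the replicate number as a block are given where they changed a call or a count by more than 1.5 times.

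Every member is named. Those past a threshold, without overlap between groups, with opposite directions in the library sets, or highest in their family are given in every sample. The members, lists and tests were chosen with earlier results of these data known. Ratios to summed markers were added after seeing the data. Exon lengths and overlaps are from GENCODE M21, in which 30 of 33 members had the deposited coordinates (all but Epha3, Robo1 and Robo2), and promoters from RefSeq on GRCm38.p6.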

Additional observations from a re-analysis of the deposited data

Results flagged for a closer look

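For 6 guidance genes the TAC minus MSC change had opposite signs in the library sets and differed by more than the spread between replicates 1 and 2 (interaction in limma). They are 20.7% of those tested, beside 27.8% of all genes. The value given is the log2 change in replicate 3 minus that in replicates 1 and 2, and is a description, since replicate 3 is 1 library in each group and has no spread of its own. Ephb2 differed by 2.83, from -2.24 to 0.59. Epha5 differed by 1.58, from -1.58 to 0.0013, where the sign in replicate 3 came from 0 against 1 estimated read. Ephb4 differed by 0.88, from -0.32 to 0.57. Efnb1 differed by 0.77, from -0.068 to 0.71. Efna2 differed by -1.47, from 0.083 to -1.39. Ephb3 differed by -1.31, from 0.33 to -0.97. In replicates 1 and 2 only, Efna2, Efnb1 and Ephb3 did not pass the adjusted threshold.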

How the results depend on the processing

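Of the values of single guidance genes under the alternatives, 458 kept their direction and side of the threshold, 31 passed it only under the alternative, 10 lost it (all Ntn1) and 20 turned sign, in 7 genes. The count over all genes of 65 was 38 with a pseudocount of 0.25, 114 with quantile normalization, 29 without the variance trend, 229 with the replicate block, 1814 with the library set as a term, 6796 in replicates 1 and 2 only, 10 with replicates 1 and 2 averaged, 23 with voom, and 0 to 292 with a sample left out. It was 0 without MSC replicate 1 or 2 or TAC replicate 1 or 2 (1360, 1367, 1036 and 1028 genes at an unadjusted p under 0.05 in limma). Of the guidance genes, 1 passed in the reported fit, 2 with the replicate block, 8 with the library set term and 23 in replicates 1 and 2 only. The shares of all genes passing in these 4 fits were 0.422%, 1.49%, 11.8% and 44.2%. In limma, 0 passed with a pseudocount of 0.25, no filter, a minimum mean of 5, averaged replicates or voom (5, 5, 4, 2 and 6 at an unadjusted p under 0.05, where 11.01%, 7.79%, 14.2%, 3.996% and 23.2% of all genes were), and 0 to 2 with a sample left out. Their unadjusted count of 5 was 13 with the replicate block, 18 with the library set term, 23 in replicates 1 and 2 only and 2 with averaged replicates (20.4%, 29.6%, 51.9% and 3.996% of all genes, beside 11.9% in the reported fit), and 3 to 11 with a sample left out (6.68% to 20.2% of all genes, with the 11 beside the 20.2%, without MSC replicate 3). Guidance genes whose groups did not overlap, 9 in the report beside 24.5% of all genes, were 27 in replicates 1 and 2 only (72.9%) and 9 to 18 with a sample left out (27.4% to 49.9%), since fewer samples overlap less often. Apart from Slit3, the block changed no call of a guidance gene.

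The sign of 7 genes turned. Ephb4 was 0.055 with quantile normalization, 0.13 with averaged replicates and 0.0021 with voom. Efna1 was 0.018 with voom. In replicates 1 and 2 only, Efna2 was 0.083, Efnb1 -0.068 and Ephb3 0.33. With a sample left out, log2 fold changes ran from -0.69 to 0.21 (Efna1), -0.11 to 0.40 (Efnb1), -0.32 to 0.13 (Ephb3), -0.55 to 0.26 (Ephb4), -1.99 to 0.61 (Robo2) and -0.31 to 1.36 (Unc5c). The ratio differences ran from -0.66 to 0.58 (Ephb4 over Ephb3), -0.013 to 1.17 (Efnb1 over Efnb3) and -0.64 to 0.52 (Unc5b over Unc5c). The cause was not tested. Leaving out a sample shifted the median of all genes from -0.13 to 0.14. The library set as a term cannot be applied to counts of groups that do not overlap. Guidance genes with no read in replicate 3 limit what its values can show.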
